A study of Mus musculus with 36 samples.

Results

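The liver is the main site at which amino acids are broken down and their nitrogen is turned into urea. During fasting it draws carbon for glucose from alanine, serine, glutamine and other amino acids, and after a meal it disposes of the surplus. Periportal hepatocytes, at the inflow of the lobule, hold most of the urea cycle, glutaminase and serine dehydratase, and a narrow ring of perivenous hepatocytes at the outflow holds glutamine synthetase and takes up the ammonia that has escaped.

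The 55 genes described here encode enzymes of these pathways. They were taken by gene symbol from a list of the urea cycle (6 genes), glutamate and transamination (7), aromatic amino acid (11), histidine (4), proline and ornithine (4), branched-chain amino acid and propionate (12), lysine (1) and serine, glycine and sulphur amino acid pathways (10). All 55 were found among the 38283 genes of the count table, and all 55 were among the 13945 genes that passed the filter on low counts and were tested.

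RNA was sequenced from whole livers of 36 male C57Bl/6J mice aged 16 weeks. Wild-type (WT) mice were compared with heterozygous Pik3r1 WT/Y657* mice, called mutant below, which carry in every cell from conception a nonsense allele that truncates the p85α regulatory subunit of phosphoinositide 3-kinase. Each genotype was sampled on chow (fed), after a fast of 16 h (fasted) and 6 h after chow was given back at the end of such a fast (refed), with 6 mice in each of the 6 groups. All groups shared strain, age and diet, so the comparisons show how the enzymes' transcripts differed with genotype and with feeding state. According to the study's methods, tissues were taken before the overnight fast, after it or after refeeding. Feeding state and time of day therefore cannot be told apart in the comparisons between states.

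Total counts ranged from 8839481 to 19542778 per liver, with a median of 13596664. The hepatocyte markers Alb, Ttr, Apoa1, Apob, Fgb and Serpina1a were abundant in every liver, summing to between 51500 and 95300 CPM (counts per 1000000 of the library total after TMM scaling), whereas 5 cholangiocyte markers summed to at most 79.6 CPM. Of the markers of other cells, the summed stellate cell and fibroblast list stood at 240 to 301 CPM in fasted WT and 294 to 492 CPM in fasted mutant livers. The Kupffer cell list spanned 181 to 256 CPM in fed WT and 171 to 633 CPM in fed mutant livers. Their part in the results below was not tested. In whole liver, fewer cells of a type and less RNA per cell cannot be told apart.

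A set of mutant livers stood apart and was found after the data had been seen. The summed level of 8 perivenous hepatocyte markers that are not among the 55 genes (Cyp2e1, Cyp1a2, Slc1a2, Rhbg, Gulo, Lect2, Axin2 and Lgr5) was below 60% of the WT median of the same state in 8 mutant livers and in 0 WT livers. Named by the codes of their labels, they were fed mice MT_866, MT_868 and MT_869 (48.9% to 54.8%), fasted mice MT_806, MT_827 and MT_922 (20.8% to 55.5%) and refed mice MT_810 and MT_898 (33.5% and 51.7%). The other 10 mutant livers lay between 66.7% and 88.8%, and the WT livers between 85.2% and 113%. The 3 fed livers have neighbouring mouse numbers, and whether they were handled together cannot be told from the labels. The sum is of unscaled CPM, so Cyp2e1 made up most of it. In fasted WT livers its median was 8750 CPM against 9590 CPM for the sum, so the split mainly reflects Cyp2e1. The weaker markers did not all follow. Fed medians in WT and mutant livers were 382 and 197 CPM for Cyp1a2 but 10.5 and 10.7 CPM for Rhbg.

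Some of the amino acid genes followed the same split of the 8 livers, which is given here as a description without a test. Most overlapped the other livers, namely 40 of the 55 genes in the fed, 45 in the fasted and 41 in the refed state. In all 3 states Glul, glutamine synthetase, was lower in these livers than in every other liver of the state. It ranged from 480 to 590 CPM in the 3 fed livers against 870 to 1070 CPM in the remaining 9, from 363 to 467 CPM against 710 to 1080 CPM in the fasted state, and from 492 to 510 CPM against 724 to 1080 CPM in the refed state. In the opposite direction, 4 genes were higher than in every other liver in all 3 states. They were Sds and Sdsl, serine dehydratase and its paralogue, Acmsd, which diverts the kynurenine pathway away from NAD synthesis, and Cbs, which makes cystathionine from homocysteine. A list of 7 periportal markers held Cyp2f2, Hsd17b13, Pck1, G6pc, Cdh1, Ctsc and Aldh1b1. Its sum had medians of 4060, 6800 and 3800 CPM in fed, fasted and refed mutant livers. The WT medians were 4140, 7040 and 3940 CPM. Single markers differed. Cyp2f2 stood at 590 to 792 CPM in the 3 fed livers, below all other fed livers at 846 CPM or more. Aldh1b1 reached 220 CPM in fed mutant and 88.1 CPM in fed WT livers.

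Sdsl reached 22.1 to 26.7 CPM in the 3 fed livers, where no other liver exceeded 13.8 CPM, and 37.0 to 54.2 CPM in the 3 fasted livers, where no other liver exceeded 22.7 CPM. Got1, cytosolic aspartate aminotransferase, was likewise above all others in the fed and fasted states. Ass1 and Gls2 were above all others in the fed and refed states, and Arg1 and Tat in the fasted and refed states. Counted over the 55 genes, 13 lay above and 2 below every other liver in the fed state, 8 and 2 in the fasted state and 12 and 2 in the refed state. Over all 13945 genes tested, 5.62% lay above and 5.27% below in the fed, 2.09% and 2.95% in the fasted and 6.16% and 7.64% in the refed state, against 23.6%, 14.5% and 21.8% of the 55 genes above and 3.64% below in each state. Values without these 8 livers are given beside the genotype comparisons.

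**Figure D1:**
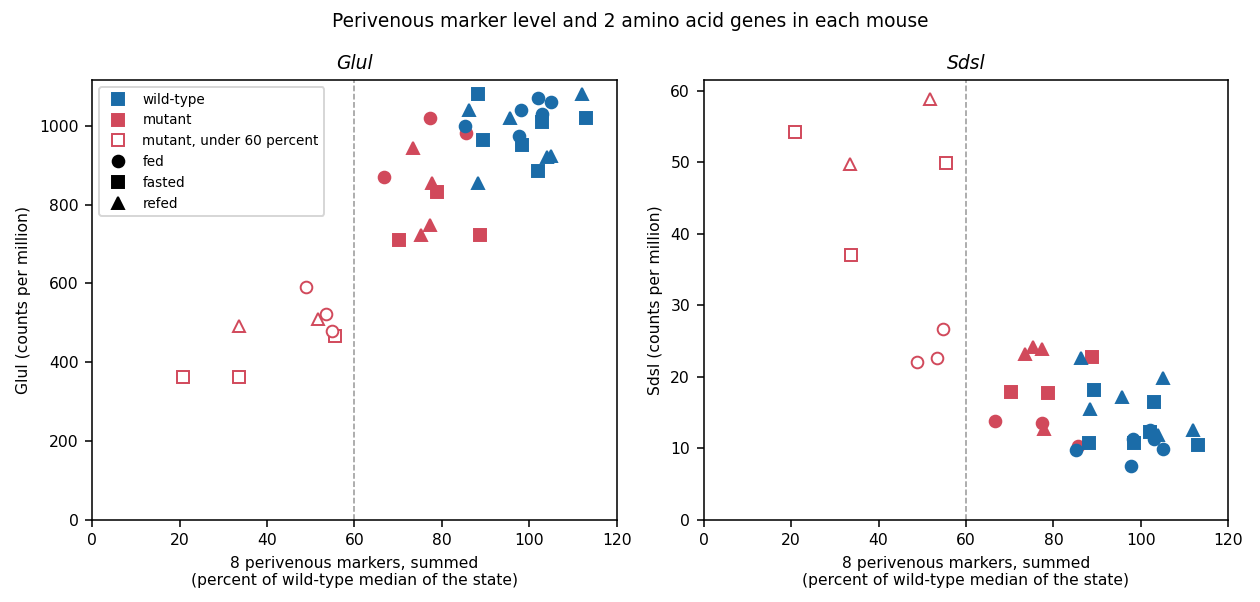
Each point is 1 liver. The x axis gives the summed level of 8 perivenous markers as a percent of the WT median of the same state, and the y axes give Glul and Sdsl in CPM, with a dashed line at 60%. The 8 mutant livers left of the line (open symbols) have the lowest Glul and the highest Sdsl of their states.

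Levels between genes were compared per kilobase of exon, as median CPM divided by the length of the merged exons. In fed WT livers Cps1, the mitochondrial enzyme that commits ammonia to the urea cycle, ranked first at 1280 CPM per kilobase. It was followed by Tat at 703, Hpd at 686, Ass1 at 667, Cdo1 at 584 and Arg1 at 583 CPM per kilobase, so that tyrosine breakdown, the urea cycle and cysteine oxidation held the top ranks. The lowest were Acmsd at 8.87, Sdsl at 7.08 and Mccc1 at 4.02 CPM per kilobase. Of the 55 genes, 3 (Aldh4a1, Glul and Hibadh) share exon positions with another gene on the same strand, and 12, among them Glul, Gls2, Acmsd and Mccc1, with a gene on the opposite strand. Of the merged exons of Aldh4a1, 32.5% overlap Gm21969 on the same strand, and its counts were not whole in 21 livers. Bckdha shares 61.7% with B3gnt8 and Sds 29.6% with Gm15690 and Plbd2, on the opposite strand, and no source says whether counting used the strand, so the values of genes with such overlaps are uncertain to that extent.

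Fasting of WT mice raised 11 of the 55 genes and lowered 8 (19 called, edgeR, adjusted p below 0.05). Over all genes tested 14.5% were called higher and 17.5% lower, which together is close to the 34.5% of the amino acid genes. The median log2 fold change was 0.02 over the 55 genes and 0.01 over all genes. The response was thus mixed within pathways, with a few large changes on each side.

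The largest rise was that of Oat, ornithine aminotransferase, which links ornithine with glutamate and proline and is known, like Glul, from perivenous hepatocytes (chr7:132557478-132576398, minus strand, GRCm38). It ranged from 517 to 959 CPM in fed WT livers with a median of 730, and from 1590 to 2350 CPM in fasted WT livers with a median of 1890. Every fasted liver was above every fed liver. The log2 fold change was 1.39 ± 0.17 (SE, n = 6 per group; edgeR, adjusted p = 5.96e-08). Among the neighbouring enzymes, Prodh, proline dehydrogenase, fell by 0.64 on the log2 scale, while Prodh2 and Aldh4a1 did not pass the test (0.20 and -0.15).

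In the urea cycle, Cps1 spanned 6000 to 7840 CPM in fed and 3630 to 5340 CPM in fasted WT livers, with medians of 7110 and 4310. All fasted livers were below all fed livers (log2 fold change -0.70 ± 0.15; edgeR, adjusted p = 0.000432). Otc, the next enzyme, also fell (-0.31), whereas Asl, argininosuccinate lyase, rose (0.52). Ass1, Arg1 and Nags did not pass the test, with log2 fold changes of -0.23, -0.25 and -0.06.

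Of the 7 genes of glutamate and transamination, 2 rose on fasting of WT mice. Gpt2, mitochondrial alanine aminotransferase, went from 446 to 628 CPM (median 533) in fed to 574 to 803 CPM (median 730) in fasted livers. The ranges overlapped at their ends (log2 fold change 0.41 ± 0.14; edgeR, adjusted p = 0.0193). Got1 rose by 0.87 on the same scale, with an adjusted p of 0.0336 by edgeR.

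Among the 11 aromatic amino acid genes, 2 rose and 3 fell. Tdo2, tryptophan 2,3-dioxygenase, which opens the kynurenine pathway, rose (0.46), as did Hpd, which makes homogentisate from tyrosine's keto acid (0.53). Haao, which makes the precursor of quinolinate late in the kynurenine pathway, fell from 363 to 496 CPM (median 417) in fed to 256 to 340 CPM (median 284) in fasted livers, with no overlap. Its log2 fold change was -0.53 ± 0.09 (edgeR, adjusted p = 8.37e-06). Acmsd fell most, from 21.2 to 37.6 CPM with a median of 25.1 to between 6.76 and 8.39 CPM with a median of 7.49. The log2 fold change was -1.84 ± 0.36 (edgeR, adjusted p = 0.000206). Ddc, aromatic amino acid decarboxylase, fell by 0.71. Kmo and Kynu, which act between Tdo2 and Haao, did not pass the test (-0.17 and 0.13).

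Of the 12 branched-chain and propionate genes, Bckdha rose (0.24), Mccc1 and Acadsb fell and 9 did not pass the test. Mccc1, a subunit of the carboxylase of leucine breakdown, went from 38.3 to 59.0 CPM (median 44.0) in fed to 26.4 to 39.1 CPM (median 32.9) in fasted livers. Only the ends of the ranges overlapped (log2 fold change -0.48 ± 0.11; edgeR, adjusted p = 0.000665). Among the serine, glycine and sulphur amino acid genes, Gldc (0.38), Cth (0.56) and Cdo1 (0.48) rose and the other 7 did not pass the test. Cdo1, which oxidises cysteine, rose from 836 to 1040 CPM (median 960) to between 1220 and 1490 CPM (median 1310) without overlap (edgeR, adjusted p = 2.47e-05). Aass, the first enzyme of lysine breakdown, rose from a range of 392 to 506.1 CPM (median 425) to 427 to 740 CPM (median 632), with a log2 fold change of 0.51 ± 0.17 (edgeR, adjusted p = 0.0184). Only the lowest fasted liver fell within the fed range. None of the 4 histidine genes passed the test.

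**Figure D2:**
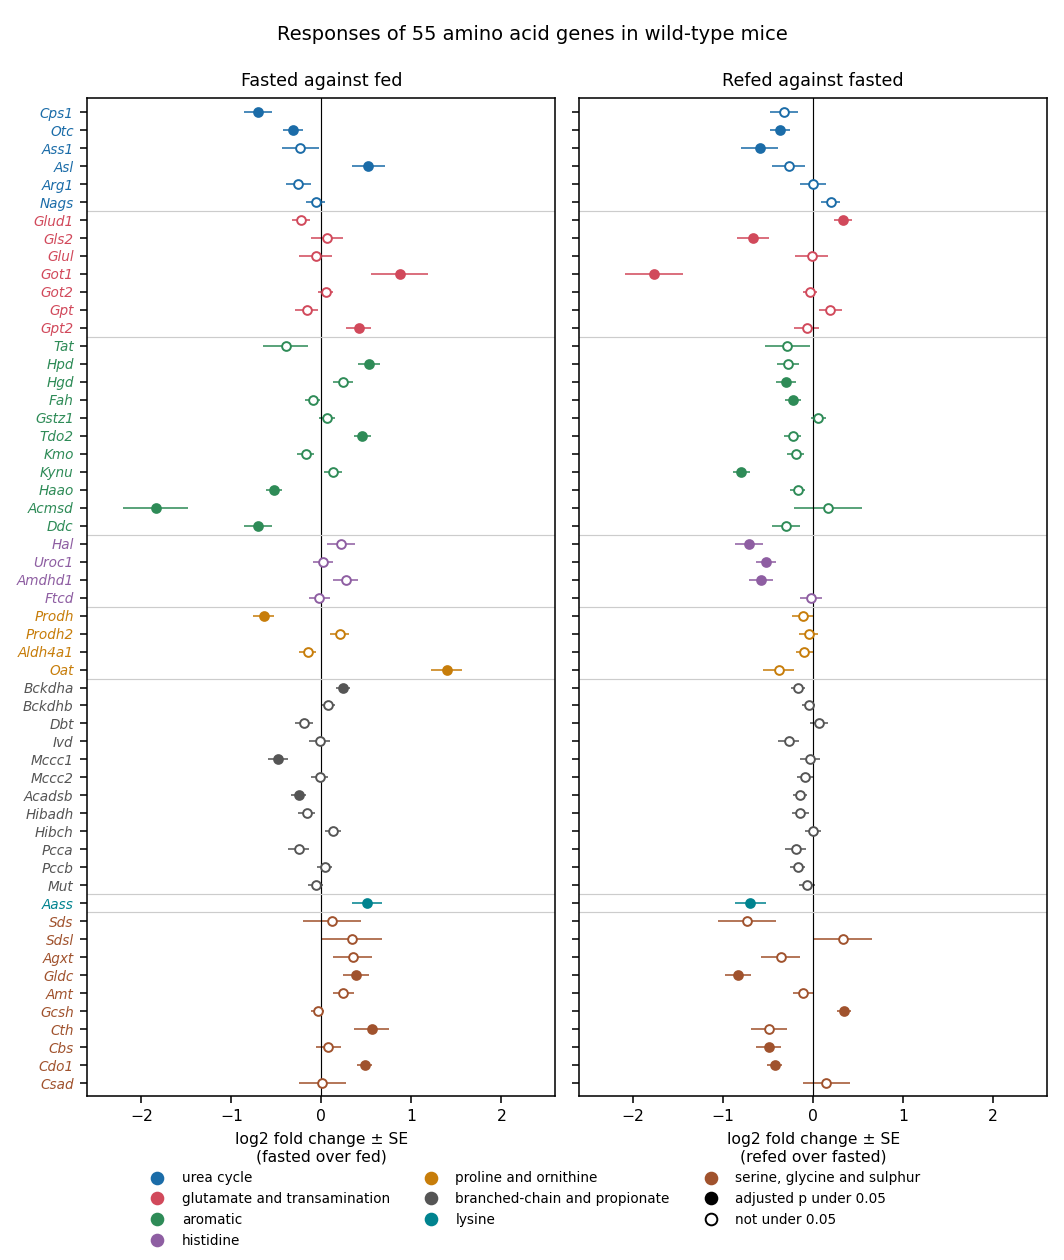
Log2 fold changes with standard errors in WT mice for each of the 55 genes, fasted over fed (left) and refed over fasted (right), with 6 mice per group. Filled points have an adjusted p under 0.05 in edgeR, and colours mark the pathways. Oat (1.39) and Acmsd (-1.84) lie farthest out on fasting, and Got1 (-1.76) on refeeding.

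In mutant mice, fasting raised 8 and lowered 22 of the 55 genes (30 called, edgeR, adjusted p below 0.05), where 15.2% of all genes tested were called higher and 17.7% lower. The median log2 fold change was -0.19 over the 55 genes against -0.01 over all genes. For 13 genes the call had the same direction in both genotypes, among them Otc, Asl, Tdo2, Haao, Acmsd, Ddc, Prodh and Cdo1, and no gene was called in opposite directions. A further 15 genes were called lower in fasted mutant mice and were not called in WT mice. They included Ivd, Mccc2, Pcca, Pccb, Dbt, Hibadh and Mut of the branched-chain and propionate pathway, of which 9 genes fell and none rose in mutant mice. Oat, in contrast, gave 0.29 ± 0.17 (edgeR, adjusted p = 0.201). Overlaps of calls were counted for the 55 genes only, so the 13 and the 15 are not read as particular to these genes. The larger number of calls in mutant mice did not hold in every setting. Fits of only the groups compared called 24 genes in WT and 19 in mutant mice. Shares over all genes are not set beside the 24 and the 19, so the change is not read as particular to these genes. Without the 8 livers low in perivenous markers 28 were called in each genotype, where 34.9% of all genes were called in WT and 26.2% in mutant mice. That setting leaves 3 fed and 3 fasted mutant livers against 6 WT livers in each state, so equal counts do not show equal responses.

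A call in one genotype alone does not show a difference between them, so the difference of the fasting response was tested directly. It was called for 3 of the 55 genes, all lower in mutant mice, where 2.59% of all genes tested were called higher and 1.76% lower. The 3 genes were Oat, with a difference of -1.11 ± 0.24 in log2 fold change (edgeR, adjusted p = 0.00655), Aldh4a1 with -0.67 ± 0.14 (edgeR, adjusted p = 0.00381) and Amdhd1 with -0.77 ± 0.19 (edgeR, adjusted p = 0.0154). Aldh4a1 oxidises glutamate semialdehyde, the product of both Oat and proline oxidation, to glutamate, and Amdhd1 carries out the third step of histidine breakdown.

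Oat was higher in every fasted than in every fed WT liver, whereas it spanned 664 to 1550 CPM (median 1180) in fasted mutant livers, against 694 to 1230 CPM (median 1010) in fed mutant livers. All 6 fasted mutant livers were below the lowest fasted WT liver at 1590 CPM. Aldh4a1 spanned 344 to 448 CPM (median 428) in fed WT, 297 to 426 CPM (median 373) in fasted WT, 378 to 486 CPM (median 435) in fed mutant and 188 to 300 CPM (median 249) in fasted mutant livers. All fasted mutant livers were thus below all fed mutant livers, while the WT ranges overlapped. Amdhd1 (chr10:93523338-93540033, minus strand) went from 162 to 244 CPM (median 207) in fed to 221 to 270 CPM (median 247) in fasted WT livers, and from 220 to 340 CPM (median 271) to 133 to 279 CPM (median 194) in mutant livers. Its neighbour Hal, which ends 4033 bases away on the plus strand and encodes the first enzyme of the same pathway, gave a difference of -0.56 that did not pass the test (edgeR, adjusted p = 0.134).

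Without the 8 livers low in perivenous markers, 6 genes were called for this difference, all lower in mutant mice, where 1.65% of all genes were called. Aldh4a1 (-0.56) and Amdhd1 (-0.67) were again among them, and the others were Hgd, Kynu, Hal and Cbs. Oat missed the threshold with a difference of -0.73 ± 0.23 (edgeR, adjusted p = 0.0933). The lowest-numbered fed mice, WT_847 to WT_850, were all WT and the highest-numbered, MT_866 to MT_869, all mutant. Genotype in the fed state is thus partly confounded with mouse number. With terms for the mouse-number series and these fed number blocks, 0 of the 55 genes were called. In that fit only WT_856, WT_860, MT_857, MT_858 and MT_859 separate the fed genotypes. The share of all genes called in that fit is not given here, so the 0 is not read as particular to the 55 genes.

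**Figure D3:**
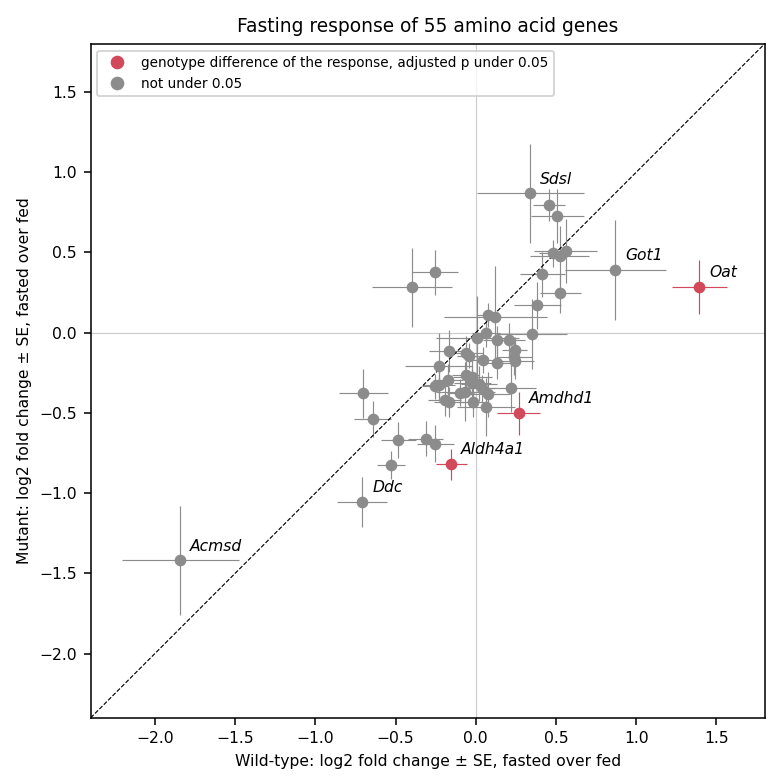
Log2 fold change on fasting with standard errors for the 55 genes, in WT mice (x axis) and in mutant mice (y axis), with the line of equal change dashed. Oat, Aldh4a1 and Amdhd1 (red), the 3 genes whose difference had an adjusted p under 0.05 in edgeR, all lie below the line.

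The 250 bases upstream of the start sites of these 3 genes and of Glul are shown because these genes carried the genotype difference of the fasting response and the split between livers. Sequences are from RefSeq (GRCm38.p6), which gave a start for 43 of the 55 genes, and are written 5′ to 3′ on the gene's strand, with each CCAAT or its reverse complement ATTGG in capitals. The windows are chr7:132576399-132576648 (minus strand) for Oat, chr4:139622644-139622893 (plus strand) for Aldh4a1, chr10:93540034-93540283 (minus strand) for Amdhd1 and chr1:153899679-153899928 (plus strand) for Glul.
Oat: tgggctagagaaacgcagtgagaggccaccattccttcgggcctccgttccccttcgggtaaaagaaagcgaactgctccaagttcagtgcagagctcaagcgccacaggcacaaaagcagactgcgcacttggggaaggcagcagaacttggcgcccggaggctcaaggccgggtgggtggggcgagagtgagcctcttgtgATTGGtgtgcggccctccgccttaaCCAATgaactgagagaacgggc
Aldh4a1: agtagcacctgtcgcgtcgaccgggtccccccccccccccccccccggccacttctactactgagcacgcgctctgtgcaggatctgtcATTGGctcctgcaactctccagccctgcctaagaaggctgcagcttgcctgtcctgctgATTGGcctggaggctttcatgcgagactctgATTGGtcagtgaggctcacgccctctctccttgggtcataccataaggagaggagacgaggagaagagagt
Amdhd1: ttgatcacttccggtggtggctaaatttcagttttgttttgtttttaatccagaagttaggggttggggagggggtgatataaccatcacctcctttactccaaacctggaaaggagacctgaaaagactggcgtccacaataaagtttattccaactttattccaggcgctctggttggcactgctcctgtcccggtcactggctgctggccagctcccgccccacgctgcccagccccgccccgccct
Glul: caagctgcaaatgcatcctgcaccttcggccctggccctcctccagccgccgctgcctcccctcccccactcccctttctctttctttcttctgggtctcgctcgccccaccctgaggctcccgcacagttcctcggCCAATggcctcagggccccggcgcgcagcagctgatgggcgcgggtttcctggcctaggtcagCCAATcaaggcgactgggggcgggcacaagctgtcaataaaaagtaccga
Counting both strands, CCAAT was found 2 times in the Oat window, 3 times in that of Aldh4a1, 2 times in that of Glul and not in that of Amdhd1. In windows of 300 bases that also hold the first 50 bases of the transcript, it was present at 56.2% of the start sites of these 43 genes (27 of 48) and at 37.4% of all 32851 start sites. Longer motifs searched on both strands were rarer. TGACGTCA, read by CREB, was at 0 of the 48 against 1.79% of all, GTAAACA, read by FOXO factors, at 2.08% against 3.65%, CTTTGAT, read by TCF/LEF factors, at 6.25% against 3.73%, and TTGCNNAA, read by C/EBP factors, at 12.5% against 10.8%. The TATAAA motif was at 12.5% against 13.6%, and CAAAGTCCA, read by HNF4A, at 0 of the 48 against 0.475% of all. These are matches of letters only.

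Refeeding of WT mice lowered 14 and raised 2 of the 55 genes (16 called, edgeR, adjusted p below 0.05), where 16.5% of all genes were called higher and 13.7% lower. The fasted mice are the same as in the fasting comparison, so the 2 responses are not independent. The median log2 fold change was -0.17 over the 55 genes.

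Got1 fell furthest. It stood at 176 to 244 CPM (median 213) in fasted and 45.4 to 78.9 CPM (median 62.0) in refed WT livers, without overlap (log2 fold change -1.76 ± 0.32; edgeR, adjusted p = 9.22e-05). In mutant mice it fell by 2.13. Gls2, the liver glutaminase, fell in both genotypes (-0.67 in WT and -0.54 in mutant mice). Glud1, glutamate dehydrogenase, rose in both (0.33 and 0.43).

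Kynu, kynureninase, spanned 151 to 193 CPM (median 173) in fasted and 88.3 to 115 CPM (median 98.3) in refed WT livers, again with no overlap. Its log2 fold change was -0.80 ± 0.10 in WT mice (edgeR, adjusted p = 6.63e-08) and -0.82 ± 0.10 in mutant mice (edgeR, adjusted p = 3.02e-08). The histidine genes Hal (-0.72), Uroc1 (-0.52) and Amdhd1 (-0.58) fell together in WT mice and Ftcd did not pass the test (-0.02). Uroc1, urocanase, went from 402 to 552 CPM (median 523) to 304 to 405 CPM (median 344), where only the top refed liver reached the fasted range (edgeR, adjusted p = 0.000346).

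In the urea cycle Otc and Ass1 fell on refeeding of WT mice (-0.37 and -0.59). Otc went from 349 to 489 CPM (median 450) to 276 to 396 CPM (median 326), with overlapping ranges (edgeR, adjusted p = 0.00876). Gldc, the decarboxylase of the glycine cleavage system, fell from 243 to 359 CPM (median 296) to 134 to 212 CPM (median 163) without overlap (log2 fold change -0.83 ± 0.15; edgeR, adjusted p = 3.81e-05). Gcsh, the carrier protein of the same system, rose (0.34), so its subunits moved in opposite directions. Aass fell to 355 to 404 CPM (median 375), below all fasted WT livers (log2 fold change -0.70 ± 0.17; edgeR, adjusted p = 0.0016), and Cdo1 fell by 0.43. None of the 12 branched-chain and propionate genes passed the test.

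In mutant mice refeeding lowered 14 and raised 4 genes (18 called, edgeR, adjusted p below 0.05), where 17.1% of all genes were called higher and 14.2% lower, with a median log2 fold change of -0.09. For 10 genes the call had the same direction in both genotypes (Glud1, Gls2, Got1, Hgd, Kynu, Hal, Aass, Gldc, Gcsh and Cdo1). That overlap was not counted over all genes and is not read as particular to these. Nags, which makes the allosteric activator of Cps1, rose in mutant mice (0.54) and gave 0.20 in WT mice, where it was not called. The difference of the refeeding response between genotypes was called for 0 of the 55 genes by edgeR, where 2.06% of all genes tested were called. limma-voom and DESeq2 also called 0, and 7 of the 55 had an unadjusted p below 0.05 in edgeR. The share of all genes with such an unadjusted p was not counted, so the 7 are not read as particular to these genes.

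Compared with fed livers, refed livers were lower in many of the genes. In WT mice 2 genes were higher and 23 lower (25 called, edgeR, against 27.5% of all genes), and in mutant mice 3 were higher and 25 lower (28 called, against 26.1% of all genes). The median log2 fold changes were -0.13 and -0.29. In both genotypes 20 genes were lower, among them Cps1 (-1.03 in WT and -0.89 in mutant mice), Otc (-0.68 and -0.90), Kynu (-0.67 and -1.01), Haao (-0.70 and -0.88), Ddc (-1.01 and -1.35) and Acmsd (-1.68 and -1.96). The share of all genes lower in both genotypes was not counted. Oat was higher in refed than in fed WT livers (1.01 ± 0.17; edgeR, adjusted p = 3.06e-05), at 1330 to 1640 CPM, and gave 0.35 in mutant mice (edgeR, adjusted p = 0.119).

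Between genotypes, fed livers differed in 2 of the 55 genes, both higher in mutant mice, where 1.21% of all genes were called higher and 1.15% lower. Genotype in the fed state was partly confounded with mouse number, as described above. Gls2 stood at 291 to 410 CPM (median 330) in WT and 374 to 677 CPM (median 545) in mutant livers, with overlap. Its log2 fold change was 0.64 ± 0.18 (edgeR, adjusted p = 0.0491). Cbs stood at 410 to 501 CPM (median 438) in WT and 473 to 777 CPM (median 622) in mutant livers, also with overlap, and gave 0.50 ± 0.14 (edgeR, adjusted p = 0.0464). The 3 livers low in perivenous markers held the highest values of both genes. Without the 8 livers 0 of the 55 genes were called, where 0.0354% of all genes were called, with log2 fold changes of 0.34 for Gls2 and 0.19 for Cbs. Leaving out any one of WT_847, WT_848, WT_849, WT_850, WT_856, MT_866, MT_868 and MT_869 also gave 0, with 0.483% to 1.78% of all genes called, and leaving out MT_858 gave 5, with 6.35% of all genes called.

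Fasted livers differed in 15 of the 55 genes, 4 higher and 11 lower in mutant mice, where 6.43% of all genes were called higher and 6.63% lower. The median log2 fold change was -0.07 over the 55 genes. For 3 of the 55 genes the ranges of the fasted genotypes did not overlap, as for 5.04% of all genes tested, which is a similar share. Leaving out fasted mouse MT_922 raised the number called to 23. The share over all genes is not set beside that count, so the rise is not read as particular to these genes. Without the 8 livers low in perivenous markers the number called was 14, with 1 higher and 13 lower, where 6.24% of all genes were called.

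Glul (chr1:153899944-153909723, plus strand) spanned 885 to 1080 CPM (median 984) in fasted WT and 363 to 833 CPM (median 589) in fasted mutant livers. Every mutant liver was below every WT liver (log2 fold change -0.77 ± 0.19; edgeR, adjusted p = 0.00509). Without the 8 livers the value was -0.38 ± 0.09 (edgeR, adjusted p = 0.00973). Oat, whose ranges are given above, was lower by the same criterion, with a log2 fold change of -0.71 ± 0.17 (edgeR, adjusted p = 0.00437) and -0.55 without the 8 livers (edgeR, adjusted p = 0.0434).

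Aldh4a1 was lower in fasted mutant livers by 0.58 ± 0.10, fold change on the log2 scale (edgeR, adjusted p = 0.000123), and only the highest mutant liver, at 300 CPM, exceeded the lowest WT liver. Uroc1 stood at 297 to 527 CPM (median 383) against a WT range of 402 to 552 CPM, with wide overlap (log2 fold change -0.32; edgeR, adjusted p = 0.0482). This call was lost when any one of 8 fasted livers was left out. Amdhd1 gave -0.33 and was not called.

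In the urea cycle the genotypes differed in both directions in the fasted state. Arg1, arginase, which releases urea, spanned 836 to 1340 CPM (median 1170) in WT and 1300 to 2560 CPM (median 1740) in mutant livers. The ranges met at their ends, where 1 mutant liver lay within the WT range (log2 fold change 0.71 ± 0.14; edgeR, adjusted p = 0.000969, and 0.35 without the 8 livers, adjusted p = 0.0482). Otc was lower, at 245 to 432 CPM (median 324) against 349 to 489 CPM, with overlap (-0.37 ± 0.11; edgeR, adjusted p = 0.0196), and gave -0.35 without the 8 livers (edgeR, adjusted p = 0.0516). Asl, Ass1 and Cps1 gave 0.42, 0.31 and 0.21 and did not pass the test.

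Of the aromatic amino acid genes, Tdo2 and Acmsd were higher and Fah and Kmo lower in fasted mutant livers. Tdo2 spanned 1780 to 2330 CPM (median 2070) in WT and 2350 to 3360 CPM (median 2710) in mutant livers, without overlap (0.44 ± 0.10; edgeR, adjusted p = 0.00217). Acmsd spanned 6.86 to 41.3 CPM (median 15) in mutant livers, of which 3 were above 20 CPM and 3 at or near the WT range (1.27 ± 0.37; edgeR, adjusted p = 0.019). Without the 8 livers Tdo2 gave 0.28 and Acmsd 0.07, and neither was called.

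Fah, which carries out the last step of tyrosine breakdown, stood at 467 to 582 CPM (median 531) in WT and 308 to 529 CPM (median 423) in mutant livers, with overlap (-0.32 ± 0.08; edgeR, adjusted p = 0.00964). Kmo, kynurenine monooxygenase, stood at 302 to 374 CPM (median 346) and 212 to 329 CPM (median 274), also with overlap (-0.34 ± 0.10; edgeR, adjusted p = 0.0145). Both were called without the 8 livers as well, at -0.33 and -0.35. Sdsl was higher, at 10.4 to 18.1 CPM (median 11.5) in WT and 17.7 to 54.2 CPM (median 29.8) in mutant livers (1.34 ± 0.32; edgeR, adjusted p = 0.0051), and gave 0.56 without the 8 livers, where it was not called. Its neighbour Sds, whose gene lies 3715 bases away on the other strand, gave 0.75 and did not pass the test (edgeR, adjusted p = 0.123).

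Some genes of leucine and propionate breakdown were lower in fasted mutant livers. Of the 12 branched-chain and propionate genes 4 were lower and none higher, with a median log2 fold change of -0.23 against 0.00 over all genes. Ivd, the dehydrogenase that follows the branched-chain ketoacid dehydrogenase in leucine breakdown, stood at 163 to 226 CPM (median 214) in WT and 110 to 224 CPM (median 148) in mutant livers (-0.42 ± 0.11; edgeR, adjusted p = 0.0119). The 2 subunits of the next enzyme in the pathway were lower as well. Mccc1 went from 26.4 to 39.1 CPM to 22 to 29.9 CPM with a median of 26.2 (-0.34 ± 0.11; edgeR, adjusted p = 0.0349). Mccc2 went from 66.4 to 82.2 CPM (median 74.1) to 38.6 to 70.5 CPM with a median of 57.1 (-0.41 ± 0.09; edgeR, adjusted p = 0.00313).

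Pccb, the β subunit of propionyl-CoA carboxylase, stood at 136 to 172 CPM (median 168) in WT and 101 to 149 CPM (median 129) in mutant livers (-0.34 ± 0.08; edgeR, adjusted p = 0.00488). The ranges of the 2 genotypes overlapped for all 4 genes. Bckdha, Bckdhb and Dbt, which encode subunits of the ketoacid dehydrogenase itself, gave -0.23, -0.0035 and -0.18 and were not called. Without the 8 livers Ivd (-0.55), Mccc2 (-0.35), Pccb (-0.26) and Dbt (-0.33) were called lower, and Mccc1 gave -0.39 ± 0.14 (edgeR, adjusted p = 0.109).

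**Figure D4:**
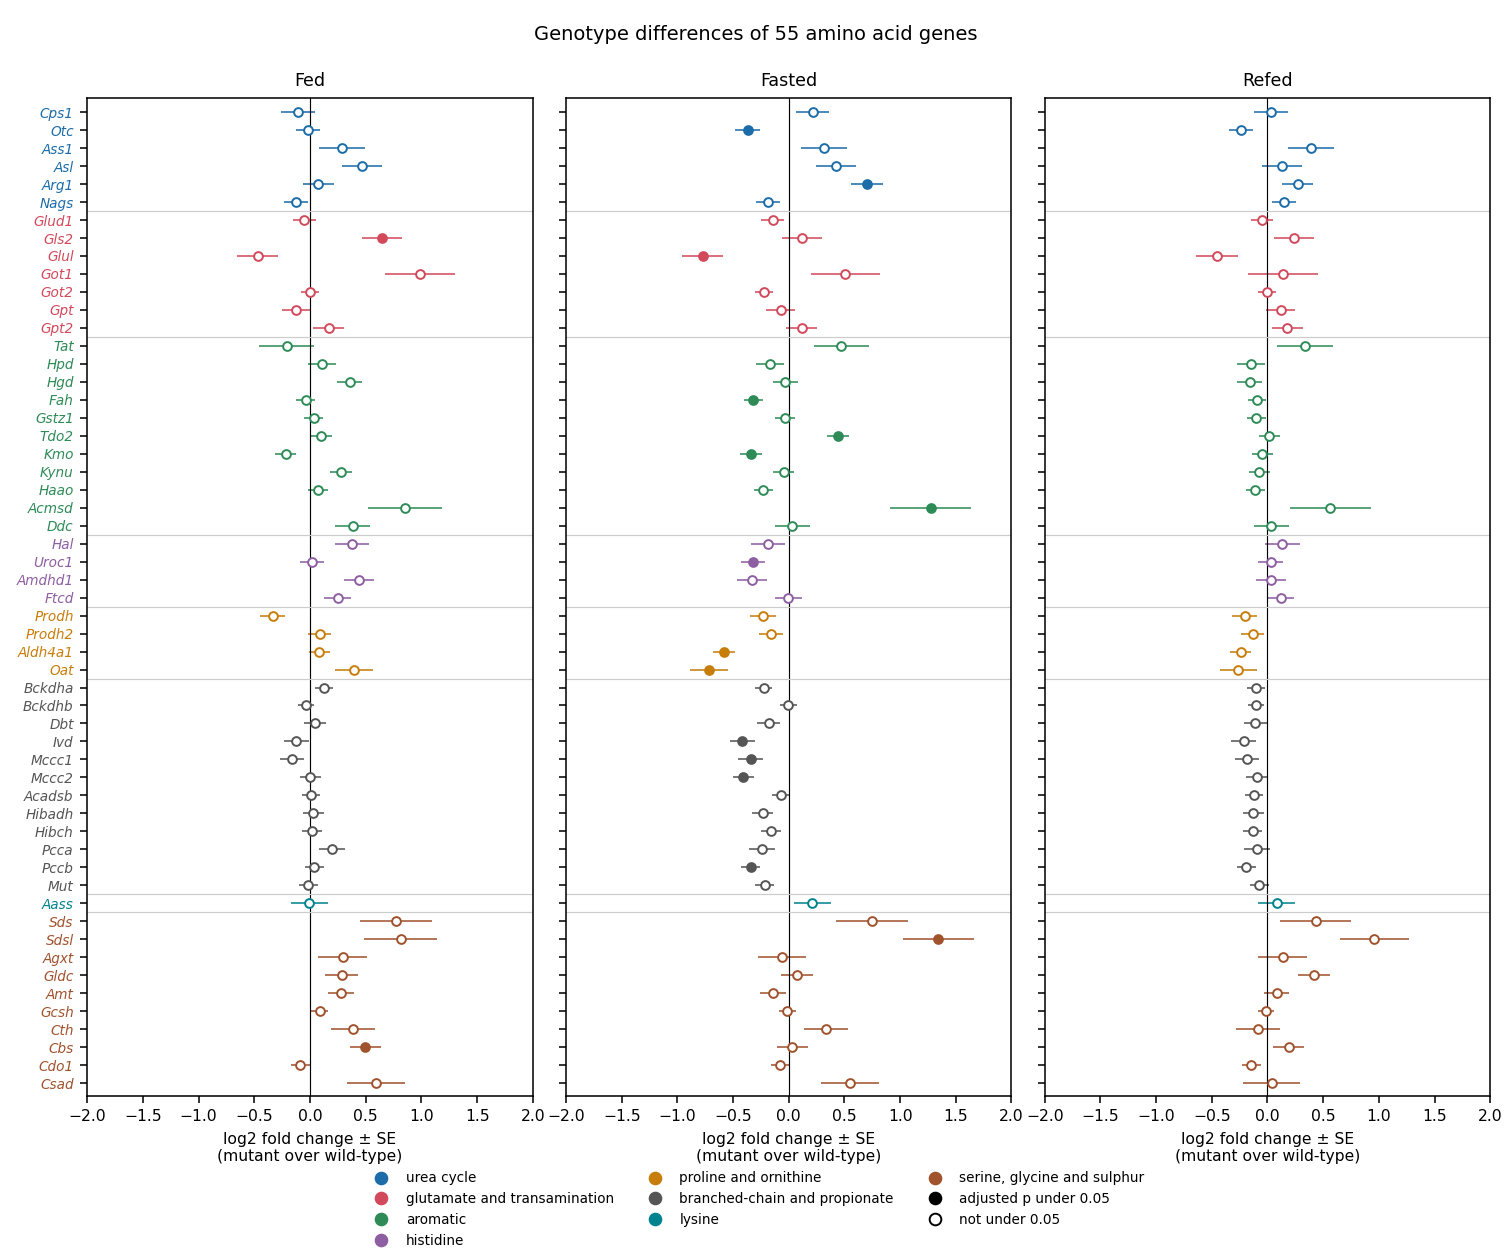
Log2 fold changes of mutant over WT mice with standard errors for the 55 genes in the fed, fasted and refed states, with 6 mice per group and filled points where the adjusted p is under 0.05 in edgeR. Filled points number 2 in the fed, 15 in the fasted and 0 in the refed state. Glul lies left of 0 and Sds, Sdsl and Acmsd lie right of 0 in all 3 panels.

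Refed livers of the 2 genotypes differed in 0 of the 55 genes by edgeR, where 0.0287% of all genes were called. limma-voom and DESeq2 also called 0, and 6 of the 55 had an unadjusted p below 0.05 in edgeR. The share of all genes with such an unadjusted p was not counted, so the 6 are not read as particular to these genes. Sdsl had the largest estimate (0.96 ± 0.31; edgeR, adjusted p = 0.296), with 11.8 to 22.6 CPM in WT and 12.7 to 58.9 CPM in mutant livers. Glul gave -0.45 ± 0.19 (edgeR, adjusted p = 0.409), with 855.6 to 1080 CPM in WT and 492 to 944 CPM in mutant livers, where 4 mutant livers were below the WT range. Sdsl gave 0.34 and Glul -0.25 without the 8 livers, and again 0 of the 55 genes were called, as for the difference of the refeeding response, where 0.0141% and 0.714% of all genes were called.

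The coefficient of variation was larger in mutant than in WT livers for 52 of the 55 genes in the fasted and 47 in the refed state, against 29 in the fed state, with median values of 21% and 11.3%, 15.1% and 9.75%, and 11.2% and 11.2%. These counts are a description, since the genes were measured in the same livers. The spread was not compared over all genes tested, so its width is not read as particular to the 55 genes. That limit also holds for the counts per liver that follow. Of the 6 fasted mutant livers, that of mouse MT_922 had the highest value of the group for 44 of the 55 genes and that of mouse MT_806 the lowest for 30. Together the 55 genes took 4.26% of the CPM in mouse MT_922 and between 2.62% and 3.51% in the other 5. In the refed mutant group, mouse MT_810 had the highest value for 34 genes.

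**Figure D5:**
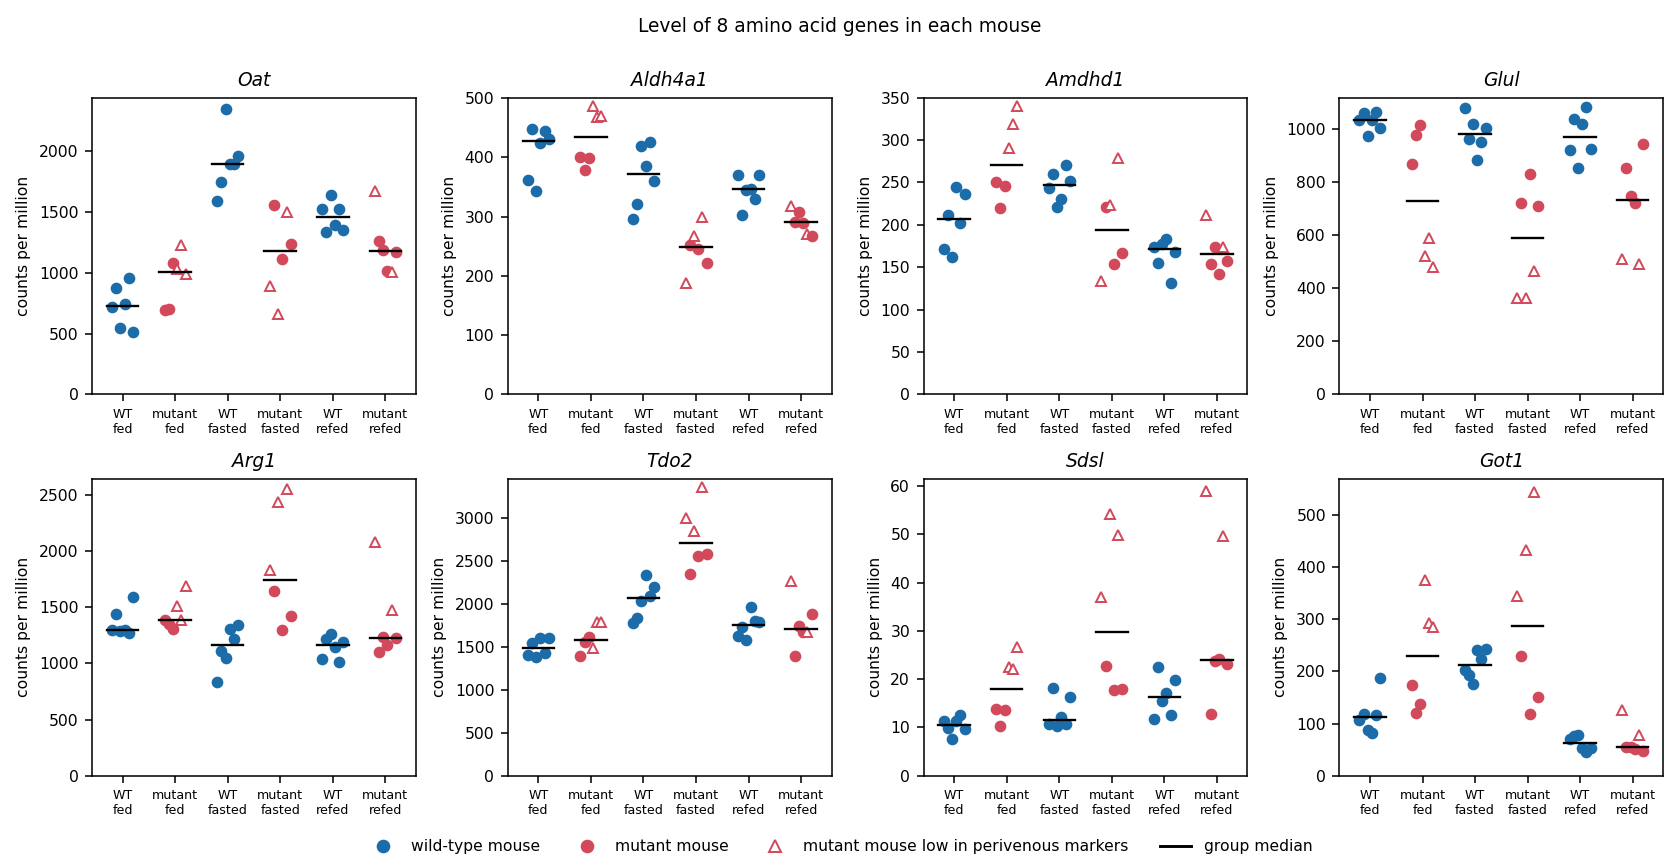
CPM of Oat, Aldh4a1, Amdhd1, Glul, Arg1, Tdo2, Sdsl and Got1 in each liver, by genotype and state, with bars at the group medians and axes starting at 0. Open triangles mark the 8 mutant livers low in perivenous markers. All fasted mutant livers lie below the lowest fasted WT liver for Oat and Glul and above the highest for Tdo2, and the triangles form the top of the Sdsl values in each state. Ranges of the fasted genotypes did not overlap for 5.04% of all genes tested.

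Other genes of the same pathways were counted from lists that were likewise made with earlier results known. Of 58 such genes tested, 13 rose and 16 fell on fasting of WT mice, 16 rose and 10 fell on refeeding of WT mice, and 0 were called between fed genotypes. Over all genes tested 14.5% rose and 17.5% fell on fasting, and 16.5% rose and 13.7% fell on refeeding. Between fed genotypes 1.21% of all genes were called higher and 1.15% lower. In fasted livers 2 were higher and 15 lower in mutant mice by edgeR, where 6.43% of all genes were called higher and 6.63% lower. Without the 8 livers 0 were higher and 15 lower, where 6.24% of all genes were called in either direction. Those with the smallest p in their lists were Gamt, which makes creatine (-0.88), Gcdh, glutaryl-CoA dehydrogenase of lysine breakdown (-0.51), Aldh6a1, of valine breakdown (-0.37), Hoga1, of hydroxyproline breakdown (-0.36), and Asrgl1, an asparaginase (-0.42). On fasting of WT mice such genes included Slc25a22, a mitochondrial glutamate carrier (1.28), Ido2 (-1.03), Gcat (-0.75) and Dhtkd1 (0.39).

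Of the regulators of amino acid and fasting metabolism described here, the transcription factors Ppara (-0.55 ± 0.10) and Cebpa (-0.51 ± 0.11) and the glucocorticoid receptor Nr3c1 (-0.38 ± 0.07) were lower in fasted mutant than in fasted WT livers (edgeR, adjusted p below 0.05), and none was higher. They were also called lower without the 8 livers, at -0.36, -0.33 and -0.30. Nr3c1 spanned 118 to 140 CPM in WT and 84.9 to 115 CPM in mutant livers, without overlap. The other 9, Hnf4a (0.22), Klf15 (0.15), Foxo1 (0.17), Ppargc1a (0.13), Cebpb (0.12), Atf4 (-0.13), Sirt3 (-0.18), Sirt5 (-0.22) and Gcgr (-0.01), did not pass the test, and none of these regulators was called between fed genotypes. On fasting of WT mice Ppara, Sirt3, Gcgr and Ppargc1a rose and Nr3c1 fell. Between fasted genotypes 6 of the 8 perivenous markers were lower in mutant livers (Axin2, Cyp1a2, Cyp2e1, Gulo, Lect2 and Lgr5), where 6.63% of all genes were called lower. The summed periportal markers had medians of 6800 CPM in fasted mutant and 7040 CPM in fasted WT livers. The part of the perivenous markers in the gene differences was not tested beyond the values without the 8 livers.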

How the data were processed

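Unnormalised estimated counts for 38283 genes in each liver were deposited by the authors. According to the labels' processing notes, reads from a stranded total RNA kit were processed with Cuffdiff, SAMtools, featureCounts and edgeR, and mm9 is listed. The wording of the protocol names human gene annotation. Of the deposited gene identifiers 36341 were found in GENCODE M21 (GRCm38), and 99.7% of their loci overlapped it, including all 55 genes described, so positions and exon lengths are given from that annotation. Versions and counting by strand are not given in the sources used here. A second table of fitted means was not used.

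Counts were rounded, since 3.64% of those above 0 were not whole. In R 4.3.3, edgeR 4.0.16 was fitted by glmQLFit over all 36 livers with 1 coefficient per group, after filterByExpr and TMM. Contrasts were tested two-sided by glmQLFTest, with p-values adjusted (Benjamini-Hochberg) over 13945 genes and a threshold of 0.05. Called means below that threshold, and standard errors are the log2 fold change divided by the root of F. The procedure was tested on simulated counts. No libraries shared counts within sampling noise (90 pairs compared). Alternatives used limma 3.58.1 (voom), DESeq2 1.42.0, other scaling and filters, mouse-number terms and left-out livers.

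The 55 genes, the other lists and the tests were chosen with earlier results of these data known. Ranges over all mice are given for genes called in any genotype comparison and, in each pathway, for the gene with the smallest p on fasting and on refeeding of WT mice. From the other lists at most the gene with the smallest p is named, and the regulators are, except for items not reported here. Depth, 8839481 to 19542778 counts, gave each of the 55 genes a mean of at least 20.5 CPM.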

Additional observations from a re-analysis of the deposited data

Results flagged for a closer look

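Over the 26 genes given in full, 156 sets of 6 livers were examined for a liver whose gap to its neighbour, as a share of the range, passed Dixon's critical value. This picked 9 values (5.77%), where chance picks about 1 in 20 sets, and 3 of the 9 came from livers low in perivenous markers. Mice WT_848 and MT_810 were each picked for more than 1 gene. The highest of their groups were Got1 in fed mouse WT_860 (188 CPM, next 119; gap 0.653 of the range), Kmo and Aass in fed mouse WT_848 (443 CPM, next 386, 0.819; 506.1 CPM, next 428, 0.686), Haao in fed mouse MT_869 (503.6 CPM, next 441, 0.754) and Mccc1 in fed mouse MT_858 (48.6 CPM, next 40.3, 0.788). In refed mouse MT_810 Kynu (118 CPM, next 94.1, 0.683) and Gldc (351 CPM, next 229, 0.695) stood apart. The lowest of their groups were Fah in refed mouse WT_816 (398 CPM, next 448, 0.725) and Ivd in fasted mouse WT_807 (163 CPM, next 204, 0.656).

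The fasting response differed between genotypes by the test of the difference itself for Amdhd1 (-0.77; edgeR, adjusted p = 0.0154), Aldh4a1 (-0.67; edgeR, adjusted p = 0.00381) and Oat (-1.11; edgeR, adjusted p = 0.00655).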

How the results depend on the processing

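Counts are of the 55 genes called. Shares over all genes are not set beside the counts of this section, so a change in a count is not read as particular to these genes. Between fed genotypes 2 became 4 with edgeR's likelihood ratio test, 0 with limma-voom, 1 with DESeq2 size factors, 7 with library size alone, 5 with DESeq2 and 0 each with no low-count filter, with only the fed groups, with mouse-number terms and without the 8 livers low in perivenous markers. For the genotype difference of the fasting response 3 became 6 with library size alone, 5 with at least 10 counts in every library, 7 with DESeq2, 0 with mouse-number terms and 6 without the 8 livers. With only the groups compared, fasting gave 19 in mutant mice (30 before) and 24 in WT mice (19), refeeding of WT mice 28 (16) and of mutant mice 10 (18). Without the 8 livers refeeding of WT mice gave 26 and fasting 28 in each genotype. This last setting was chosen after seeing the data, and changes the genes tested and the shared estimate of spread. The cause of the other changes was not tested.

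Leaving out 1 liver at a time gave 0 to 5 between fed genotypes, 11 to 23 between fasted genotypes (23 without MT_922), 3 to 9 for the difference of the fasting response (5 without MT_866 or MT_921, 9 without MT_922) and 0 to 1 for that of refeeding (1 without MT_810). The fasting responses gave 13 to 19 in WT and 23 to 31 in mutant mice, the refeeding responses 13 to 18 and 16 to 21, and refed against fed 19 to 25 and 25 to 29. No call turned its direction. Of the 156 calls on single genes, 121 of 1424 values under other settings and 226 of 1908 with 1 liver left out missed the threshold. Between fasted genotypes Aldh4a1, Arg1, Glul, Mccc2, Oat and Pccb were called under every setting run. No paired analysis was possible because no mouse number is shared between groups.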
